A study of Mus musculus with 9 samples.

Results

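Stromal progenitors of subcutaneous adipose tissue and of skeletal muscle carry the same surface protein, Sca-1, and are isolated with the same antibodies. The adipose cells are called adipose stromal cells (ASCs) and the muscle cells fibroadipogenic progenitors (FAPs). Both are fibroblast-like cells that lay down extracellular matrix, can form adipocytes, and support the parenchyma around them, the adipocytes in fat and the satellite cells and myofibers in muscle. Fibroblasts of different body sites are known to keep a site-specific programme of homeobox and other patterning transcription factors, together with site-specific matrix and signalling genes. The comparison of ASCs with non-injured FAPs asks which genes separate these progenitors when the muscle has received only saline. It covers the 13598 genes of the 26214 in the table whose mean over 3 ASC and 2 FAP libraries was at least 10.

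RNA was sequenced from cells of C57Bl/6 J mice, described in the general methods as male and aged 8 to 12 weeks, collected on day 1 after NaCl was injected into the quadriceps. ASCs came from subcutaneous adipose tissue and FAPs from the quadriceps itself. In both tissues cells with CD45 or CD31 were depleted on magnetic beads, and cells with Sca-1 were then positively selected. Cells of 3 animals were pooled for the libraries of a cell type, so differences between single animals are not visible. The description does not say whether each library had its own pool. Triplicates are described for the study, and the FAP group here holds 2 of them. Tissue, its digestion and the position of the depot in the body differ together between the groups, and their effects cannot be told apart. The values are reads per gene divided by a size factor of the library, and they are not corrected for gene length. Reads on genes numbered 27481573, 27349184 and 27402102 in the ASC libraries and 24052508 and 24164447 in the FAP libraries. A single read was worth 1.32, 1.13 and 1.26 in ASCs and 0.951 and 0.941 in FAPs. FAPs of muscle injected with glycerol, which damages myofibers (injured FAPs, 3 libraries), served in the test to estimate the spread between replicates. A library without replicate, made from CD31+CD45+ cells of the injured muscle, is used as a reference for endothelial and blood cell genes.

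The ASC libraries separated from the FAP libraries. Across the tested genes, which are not independent replicates, the Pearson correlation of log2(value + 1) was 0.974 to 0.985 between ASC libraries and 0.985 between the FAP libraries. Between an ASC and a FAP library it was 0.835 to 0.868. Injured FAPs, which also came from muscle, correlated with FAP libraries at 0.867 to 0.875 and with ASC libraries at 0.848 to 0.888. The libraries of muscle thus did not form a group of their own by this measure. ASC replicate 1 stood somewhat apart from the other ASC libraries, with a root mean square difference in log2 of 0.658 from replicate 2 and 0.581 from replicate 3, against 0.486 between replicates 2 and 3. The FAP libraries differed from each other by 0.454, and every ASC library differed from every FAP library by 1.41 to 1.61. Injured FAP libraries were closer to each other, at 0.313 to 0.342, and they share the estimate of the spread in the test. ASC replicates 1 and 3 also held keratin and epithelial genes that ASC replicate 2 lacked, as described with the markers of other cell types. The FAP libraries also differed from each other in single genes. Pecam1, the CD31 gene used for the depletion, was at 83.0, 46.4 and 67.8 in ASCs and 195 and 0 in FAPs and was not called (log2 fold change 2.21, adjusted p 0.249). It was called higher without FAP replicate 1 (6.02) and lower without FAP replicate 2 (-1.59), so no direction is given for it. The fatty acid transporter gene Cd36, chosen after its values were seen, had the same pattern with 669, 882 and 623 in ASCs and 1080.2 and 0 in FAPs, and without FAP replicate 1 it was called higher at 9.49.

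A gene was called different at an adjusted p under 0.05 from limma together with an absolute log2 fold change over 0.58. Of the 13598 genes tested, 6452 (47.4%) were called, 3185 (23.4%) higher and 3267 (24%) lower in ASCs. The counts of every gene list below are to be read against these shares of all genes. The change was large for many of the called genes, with 1971 higher by more than 1 on the log2 scale and 2238 lower by more than 1. A change of more than 3 was found for 316 higher and 432 lower genes. The 3 ASC values did not overlap the 2 FAP values in all but 33 of the called genes, and also in 3442 genes that were not called. The median log2 fold change over all tested genes was 0, with 6799 genes on either side. A further 7685 genes were at 0 in all 5 libraries, and 4931 genes had values but a mean under 10. The gene just above the limit was Gm4787 (mean 10, not called, but called lower without FAP replicate 1, -1.96, with edgeR, -1.56, and with total reads, -1.74) and the gene just below was Fbxo41 (mean 9.98). Among the tested genes 389 had a mean of 10 or more in ASCs alone and 537 in FAPs alone, and these had to differ to be tested at all. Because 1 was added to each value before the logarithm, the log2 fold change understates the difference for genes with low values. A gene listed at 0 throughout a group is given as at least so many fold different, computed against 3 reads per library. Such a bound holds only if the listed zeros are counts of reads, which was not tested. In 53 tested genes both FAP libraries were at 0, and in 9 genes all ASC libraries were at 0.

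**Figure D1:**
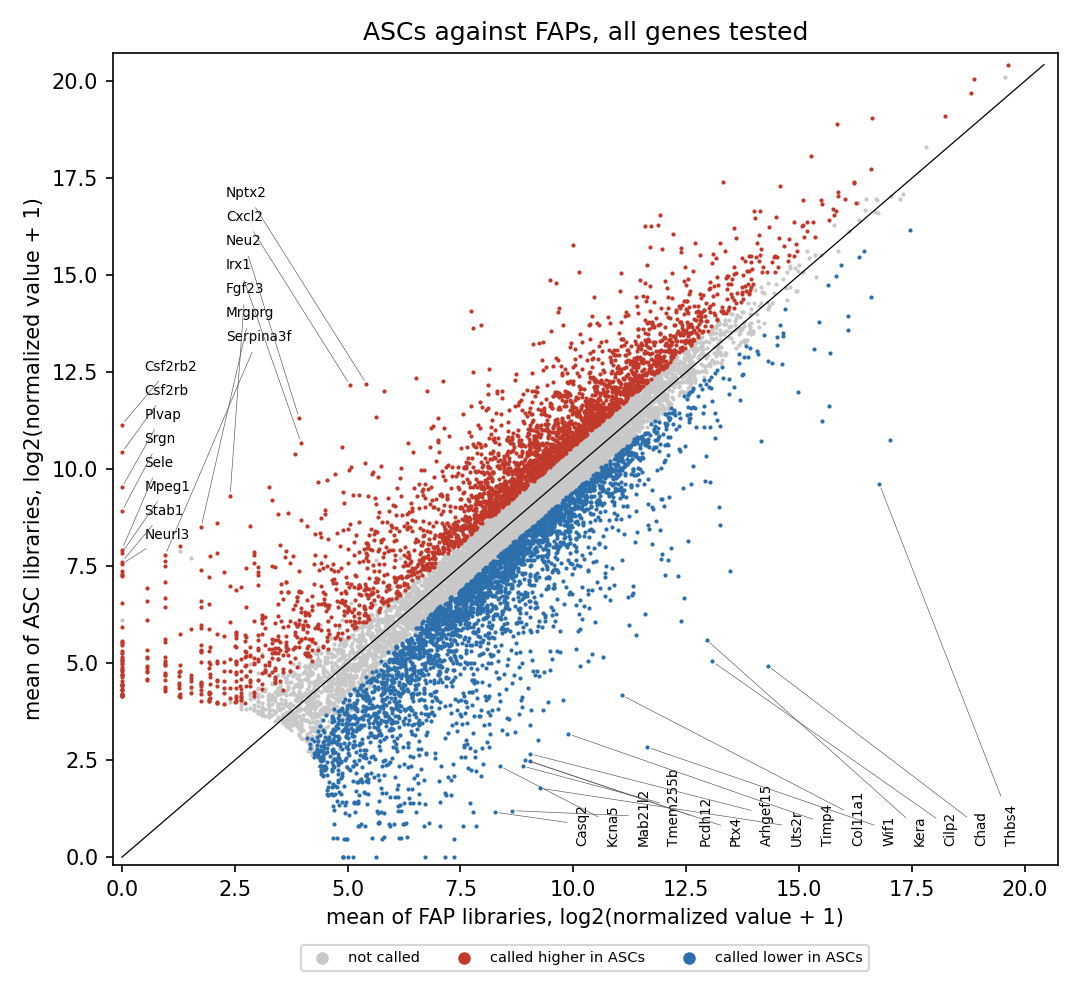
Mean of the 3 ASC libraries against the mean of the 2 FAP libraries for the 13598 tested genes, each axis as log2(normalized value + 1), with 3185 genes called higher in ASCs in red, 3267 called lower in blue and the line of equal values in black. Labels mark 15 genes at the top of the rises and 15 at the bottom of the falls, and 8 of the labelled rises lie on the left edge, at 0 in FAPs.

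The balance of higher and lower genes depends on the scaling of the libraries. The ASC libraries have more of their reads on a small number of genes, and the 100 most abundant genes took 41.3%, 40.3% and 43.1% of the values in ASCs and 35.9% and 36.3% in FAPs. With a common 75th percentile, the median of all genes shifted by -0.21, and higher genes made up 36.9% of the calls in place of 49.4%. Scaling each library to its total reads, an alternative chosen after seeing the data, shifted the median by -0.57, and higher genes then made up 19.9% of the calls. The sign of a log2 fold change can therefore depend on the scaling, and the lists whose median changes sign are named with their results.

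The surface markers used to positively select and recognise the cells were present in every library of both groups. Ly6a, which encodes Sca-1, was at 46513, 49855 and 36777 in ASCs and 16542 and 10823 in FAPs (log2 fold change 1.72, adjusted p 3.4e-05). Cd34, a sialomucin of stromal and endothelial progenitors, was at 55027, 42885 and 54644 in ASCs and 32892 and 30696 in FAPs (log2 fold change 0.67, adjusted p 0.00179). Both markers were abundant in every library and higher in ASCs, for Cd34 by a margin that quantile normalization of the log2 values turned to -0.07. The call of Cd34 was also lost with the 75th percentile (0.46) and total reads (0.10). Pdgfra, the receptor that defines FAPs in muscle, was at 10837, 15083 and 13043 in ASCs and 17754 and 17756 in FAPs (log2 fold change -0.46, adjusted p 0.0142) and did not pass the fold threshold, but it was called lower with quantile normalization (-1.22), the 75th percentile (-0.67) and total reads (-1.03). Its sister receptor Pdgfrb was lower in ASCs, at 8888, 7395 and 7643 in ASCs and 12872 and 13029.9 in FAPs (log2 fold change -0.70, adjusted p 0.000282). Thy1, which encodes the surface glycoprotein CD90, was at 15999, 14381 and 17583 in ASCs and 8532 and 9472 in FAPs (log2 fold change 0.83, adjusted p 0.000192), a call lost at 0.15 with quantile normalization and 0.26 with total reads. Pdpn, the gene of the mucin-like protein podoplanin, was at 23063, 13771 and 13192 in ASCs and 2858 and 2697 in FAPs (log2 fold change 2.54, adjusted p 3.67e-06). Ptprc, the CD45 gene used for the depletion, was at 0, 1.13 and 0 in ASCs and 0 and 0 in FAPs, so 1 read over the 5 libraries. Every library thus carried Ly6a, Cd34 and Pdgfra and was at or near 0 for Ptprc, whereas Pecam1, the other depleted marker, was above 0 in 4 of the 5 libraries, as given above.

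Among the 18 sort and stromal identity markers, 8 were called higher and 7 lower in ASCs, shares to be read against the 23.4% and 24% of all genes. Their median log2 fold change was 0.22, which fell to -0.25 with quantile normalization and -0.35 with scaling to total reads. Other higher members were Nt5e (CD73), Cd44, Tek and Vcam1, with log2 fold changes of 1.94, 1.89, 1.53 and 1.45. On the other side stood markers that are shared with mural cells and neural lineages. Nes, which encodes the filament protein nestin, was at 6.59, 19.3 and 18.8 in ASCs and 723 and 665 in FAPs (log2 fold change -5.58, adjusted p 1.06e-06). Mcam, the CD146 gene, was at 61.9, 19.3 and 35.2 in ASCs and 805 and 796 in FAPs (log2 fold change -4.48, adjusted p 3.77e-06). Cspg4, which encodes the proteoglycan NG2, was at 216, 185 and 212 in ASCs and 3666 and 4176 in FAPs (log2 fold change -4.26, adjusted p 8.4e-09). All 3 were detected in each ASC library and were far higher in both FAP libraries. Eng (endoglin, -1.52) and Cd9 (a tetraspanin, -1.42) were also lower in ASCs, and Itgb1 and Mme were not called. In bulk samples fewer cells of a kind and less RNA per cell cannot be told apart, here and for all genes below.

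**Figure D2:**
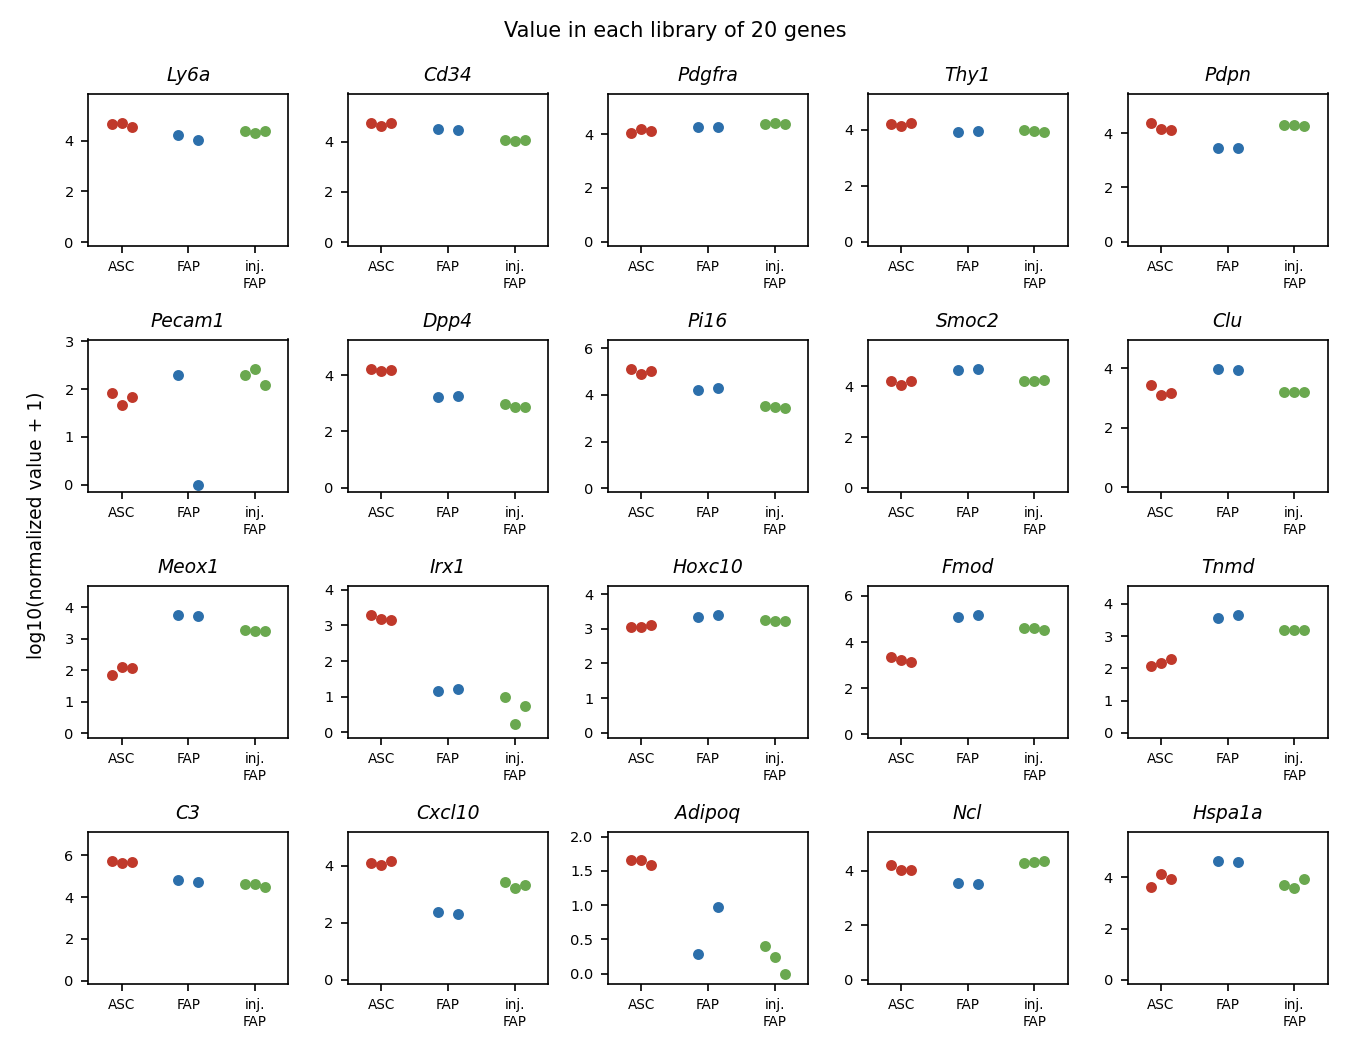
Value of 20 genes in each of the 3 ASC, 2 FAP and 3 injured FAP libraries, on a log10(normalized value + 1) axis, 1 point per library. Ly6a, Cd34, Pdgfra and Thy1 are present in all 8 libraries, while Irx1 is lower in FAPs than in ASCs and Fmod and Meox1 are lower in ASCs than in FAPs.

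Fibroblasts of many organs fall into a Pi16 and Dpp4 positive state, found in the adventitia and fascia, and more committed states that express basement membrane genes such as Col15a1. All 35 markers of these states passed the filter. In ASCs 17 (48.6%) were called higher and 8 (22.9%) lower, against 23.4% and 24% of all genes. The median was 0.54 (14 higher and 12 lower, median -0.03, with total reads). Dpp4, a serine peptidase of the progenitor state, was at 16547, 14086 and 15958 in ASCs and 1749.7 and 1761 in FAPs (log2 fold change 3.14, adjusted p 6.63e-08). Pi16, a peptidase inhibitor gene chosen after its values were seen, was at 124419, 75929 and 108050.0 in ASCs and 16689 and 19305 in FAPs (log2 fold change 2.49, adjusted p 2.39e-06). Wnt2, a Wnt ligand of the same state, was at 2046, 1438 and 1534 in ASCs and 149 and 104 in FAPs (log2 fold change 3.72, adjusted p 2.6e-07). Each of the 3 genes was higher in every ASC library than in either FAP library. Gfpt2, an enzyme of the hexosamine pathway and the list member with the highest mean in ASCs, was at 252246, 112007 and 156199 in ASCs and 10030.0 and 10322 in FAPs (log2 fold change 4.01, adjusted p 1.18e-06). Some genes of the committed states were lower, but the counts above were not split by state. Tek, also a member of this list, was higher as given above. Col15a1, Smoc2 and Clu were chosen after their values were seen. Col15a1 was at 28229.7, 32112 and 35918 in ASCs and 57295 and 59112 in FAPs (log2 fold change -0.87, adjusted p 0.000236). Smoc2, a matricellular calcium-binding protein gene, was at 15667, 11041 and 16232 in ASCs and 42307 and 46390.4 in FAPs (log2 fold change -1.65, adjusted p 1.47e-05), and the extracellular chaperone gene Clu had a log2 fold change of -2.41. Gdf10, Igfbp6, Hspg2 and Col4a1 were abundant in both groups and not called. With quantile normalization Gdf10 (-0.63), Hspg2 (-0.77) and Col4a1 (-0.68) were called lower, and so were Hspg2 (-0.73) and Col4a1 (-0.61) with total reads.

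The 15 largest rises among called genes with a mean of at least 100 include genes listed at 0 in both FAP libraries. Csf2rb and Csf2rb2 encode the beta chains of the receptors for IL-3, IL-5 and GM-CSF and lie next to each other on chromosome 15. Csf2rb2 was at 4184, 1134 and 1483 in ASCs and at 0 in FAPs, at least 799-fold higher. Csf2rb was at 2915, 659 and 577 in ASCs and at 0 in FAPs, at least 488-fold higher. These near-identical genes share sequence, and how reads with several matches were counted is not stated, so their values are uncertain and are not independent of each other. ASC replicate 1 held the highest value of both genes, and without it the bounds were 461 for Csf2rb2 and 218 for Csf2rb. Plvap, a protein of endothelial diaphragms, was at 749.6, 710.1 and 756 in ASCs and at 0 in FAPs, at least 260.3-fold higher. Srgn (serglycin, at least 169.8-fold), Sele (E-selectin, at least 85.4-fold), Mpeg1 (at least 80.8-fold), Stab1 (at least 68.6-fold) and Neurl3 (at least 65.9-fold) were also listed at 0 in both FAP libraries. These genes are known from endothelial or myeloid cells, and in the CD31+CD45+ library they reached 32817 for Plvap, 9258 for Srgn, 2544 for Sele, 986 for Mpeg1, 8473 for Stab1 and 929 for Neurl3. The part of such cells in these rises was not tested.

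The remaining large rises were of genes near 0 in the CD31+CD45+ library. Nptx2, a secreted pentraxin first described in neurons, was at 6404, 2309 and 5387 in ASCs and 57.1 and 26.3 in FAPs (log2 fold change 6.76, adjusted p 9.63e-07). Neu2, a cytosolic sialidase, was at 4783, 1585 and 1294 in ASCs and 14.3 and 14.1 in FAPs (log2 fold change 7.14, adjusted p 6.83e-07). Fgf23, the hormone that lowers blood phosphate, was at 933, 712 and 255 in ASCs and 5.71 and 2.82 in FAPs (log2 fold change 6.77, adjusted p 1.77e-06). Its values varied among ASC libraries, and the lowest was still far above FAPs. Mrgprg, a Mas-related G protein-coupled receptor, was at 426, 478 and 181 in ASCs and 3.80 and 0.941 in FAPs (log2 fold change 6.77, adjusted p 5.44e-06). Serpina3f, a serine protease inhibitor, was at 220.0, 151 and 286 in ASCs and 0 and 1.88 in FAPs (log2 fold change 6.97, adjusted p 2.78e-06). In none of these 5 genes did the FAP libraries exceed 57.1. The last members of the 15 were the chemokine gene Cxcl2 and the homeobox gene Irx1, which are described with their families.

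The 15 largest falls are likewise among called genes with a mean of at least 100. Chad, which encodes the leucine-rich cartilage protein chondroadherin, was at 16042 and 24619.5 in FAPs and 0, 28.3 and 60.3 in ASCs (log2 fold change -10.68, adjusted p 6.04e-05). Wif1, a secreted Wnt inhibitor, was at 2878 and 3468 in FAPs and 0, 3.40 and 15.1 in ASCs (log2 fold change -9.58, adjusted p 5.98e-06). Cilp2, a cartilage intermediate layer protein, was at 7454 and 9853 in FAPs and 13.2, 34.0 and 49.0 in ASCs (log2 fold change -8.20, adjusted p 1.61e-07). The FAP libraries were high for each of these genes, and ASC replicate 1 was at 0 for Chad and Wif1. Uts2r, the urotensin receptor, was at 506 and 714 in FAPs and 0, 2.27 and 5.02 in ASCs (log2 fold change -7.80, adjusted p 2.56e-06). Mab21l2, a regulator of embryonic patterning, was at 397 and 405 in FAPs and 2.63, 0 and 1.26 in ASCs (log2 fold change -7.64, adjusted p 4.75e-07). In ASCs both genes were at the level of a few reads. A further group of falls belonged to genes that were abundant in the CD31+CD45+ library. Arhgef15, a gene of endothelial cells, was at 540.1 and 509.9 in FAPs and 6.59, 5.66 and 3.77 in ASCs (log2 fold change -6.40, adjusted p 1.28e-07) and at 17987 in CD31+CD45+ cells. Pcdh12, a vascular protocadherin, was at 457 and 512 in FAPs and 1.32, 9.06 and 3.77 in ASCs (log2 fold change -6.66, adjusted p 3.13e-06) and at 4979.8 in CD31+CD45+ cells. Timp4, Tmem255b, Kcna5 and Casq2 had log2 fold changes of -6.71, -6.54, -6.48 and -7.08, and reached 8638, 3445, 3376 and 1301 in CD31+CD45+ cells. The part of endothelial cells in these falls was not tested.

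Hox genes mark position along the body and limb axes. Of the 39 Hox genes of the 4 clusters, 28 passed the filter, and 1 was called higher and 17 lower in ASCs (60.7% lower, against 24% of all genes). Their median was -1.03, and it stayed negative under each scaling tried. Of the 28, 1 passed the filter through ASCs alone and 1 through FAPs alone and had to differ. The counts were 4 higher and 15 lower with quantile normalization and 0 higher and 22 lower with total reads. Summed over the clusters, Hox genes reached 4129.9, 5072 and 4944 in ASCs and 8775 and 9444 in FAPs. In the HoxA cluster all 9 tested genes were called lower, and the cluster's sum was 393, 811 and 608 in ASCs and 1934 and 2018 in FAPs. HoxB had 2 lower and 1 higher of 7 tested genes, HoxC 4 lower of 7 and HoxD 2 lower of 5. Hoxa9 was at 72.5, 152 and 110.5 in ASCs and 449.8 and 429 in FAPs (log2 fold change -2.03, adjusted p 0.000111). Hoxc10, the most abundant Hox gene in both groups and a gene of posterior trunk and hindlimb, was at 1149, 1154 and 1267 in ASCs and 2271 and 2523 in FAPs (log2 fold change -1.01, adjusted p 1.29e-05). From the same cluster Hoxc6, chosen after its values were seen, was at 511, 618 and 633 in ASCs and 1452 and 1544 in FAPs (log2 fold change -1.35, adjusted p 5.77e-06). Hoxc10 and Hoxc6 were thus lower in ASCs but well above the detection limit in each ASC library. Hoxc8 and Hoxd8, from the middle of their clusters, were not called and lay slightly higher in ASCs (0.43 and 0.26), and they changed sign with scaling to total reads (-0.14 and -0.31). Hoxd8 was called higher (0.59) with quantile normalization.

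Hoxd13 and its neighbour Evx2 were present in FAPs alone. Hoxd13, the last gene of the cluster on chromosome 2 and a gene of the distal limb, was at 90.3 and 117 in FAPs and at 0 in all ASC libraries, at least 27.9-fold lower. Evx2, the homeobox gene beside it, was at 147 and 181 in FAPs and at 0 in all ASC libraries, at least 44.3-fold lower. Evx2 had the highest FAP mean of the 9 genes at 0 throughout ASCs. The single higher Hox gene, Hoxb7, was at 10.5, 22.7 and 20.1 in ASCs and 0.951 and 9.41 in FAPs (log2 fold change 1.99, adjusted p 0.0236). That call rests on low values, and without ASC replicate 2 (1.79), ASC replicate 3 (1.87) or FAP replicate 1 (0.78), with only the 5 libraries in the fit (1.99) or with total reads (1.51), Hoxb7 was not called.

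Patterning factors outside the Hox clusters divided between the tissues. Of 76 listed genes 54 passed the filter, 19 (35.2%) were called higher and 22 (40.7%) lower, both above the shares of all genes, but 6 passed the filter through ASCs alone and 4 through FAPs alone and had to differ. The median was 0.05 and turned negative with quantile normalization (-0.07), the 75th percentile (-0.16) and total reads (-0.51, with 15 higher and 25 lower). Iroquois homeobox genes of clusters on chromosomes 13 and 8 were higher in ASCs. Irx1 was at 1971, 1558 and 1393 in ASCs and 13.3 and 16 in FAPs (log2 fold change 6.70, adjusted p 4.6e-06). Its cluster neighbour Irx2 was at 856, 831 and 829.8 in ASCs and 17.1 and 27.3 in FAPs (log2 fold change 5.21, adjusted p 1.35e-07). From the other cluster, Irx5 was at 532, 813 and 695 in ASCs and 25.7 and 32.0 in FAPs (log2 fold change 4.5, adjusted p 8e-07) and Irx3 had a smaller log2 fold change of 1.56. Irx2, Irx3 and Irx5 were chosen after their values were seen. For Irx1, Irx2 and Irx5 the FAP libraries stayed low, with 32.0 the highest value, and the lowest ASC value was 532. Osr2, an odd-skipped zinc finger gene, was at 12183, 13608 and 14930.2 in ASCs and 1510.0 and 1546 in FAPs (log2 fold change 3.15, adjusted p 6.9e-08). Tbx1, a T-box gene of the pharyngeal region, was at 98.8, 90.6 and 90.4 in ASCs and at 0 in FAPs, at least 32.9-fold higher. The neural factor gene Sim1 was also at 0 in both FAP libraries and at least 16.4-fold higher in ASCs.

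FAPs carried a different set of patterning factors. Meox1, a homeobox gene of the somites from which skeletal muscle arises, was at 5730.1 and 5511 in FAPs and 67.2, 126 and 113 in ASCs (log2 fold change -5.82, adjusted p 4.36e-08). Meox2 was at 8441 and 8187 in FAPs and 747, 925 and 757 in ASCs (log2 fold change -3.37, adjusted p 2.04e-08). Tbx4, a T-box gene of the hindlimb, was at 509.7 and 662 in FAPs and 30.3, 29.4 and 20.1 in ASCs (log2 fold change -4.42, adjusted p 1.47e-07). Meox2 and Tbx4 were chosen after their values were seen. The FAP libraries exceeded the ASC libraries for each of these 3 genes, and the lowest FAP value of Meox1 was 5511 against a highest ASC value of 126. Some other limb and mesenchymal factors were not called. Tbx15 was at 2915, 3389 and 3332 in ASCs and 3393 and 3142 in FAPs (log2 fold change -0.03, adjusted p 0.829, and called lower at -0.59 with total reads), Shox2 had a log2 fold change of 0.06 and Osr1 of 0.17. The forelimb gene Tbx5, chosen after its values were seen, was at 1212, 997 and 1306 in ASCs and 958 and 1102 in FAPs (log2 fold change 0.18, adjusted p 0.304). Prrx1, a factor of limb mesenchyme also chosen after its values were seen, was called higher, at 8305, 9461 and 8116 in ASCs and 5583 and 5046 in FAPs (log2 fold change 0.70, adjusted p 0.000245), but not with quantile normalization (0.09), the 75th percentile (0.49) or total reads (0.13).

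**Figure D3:**
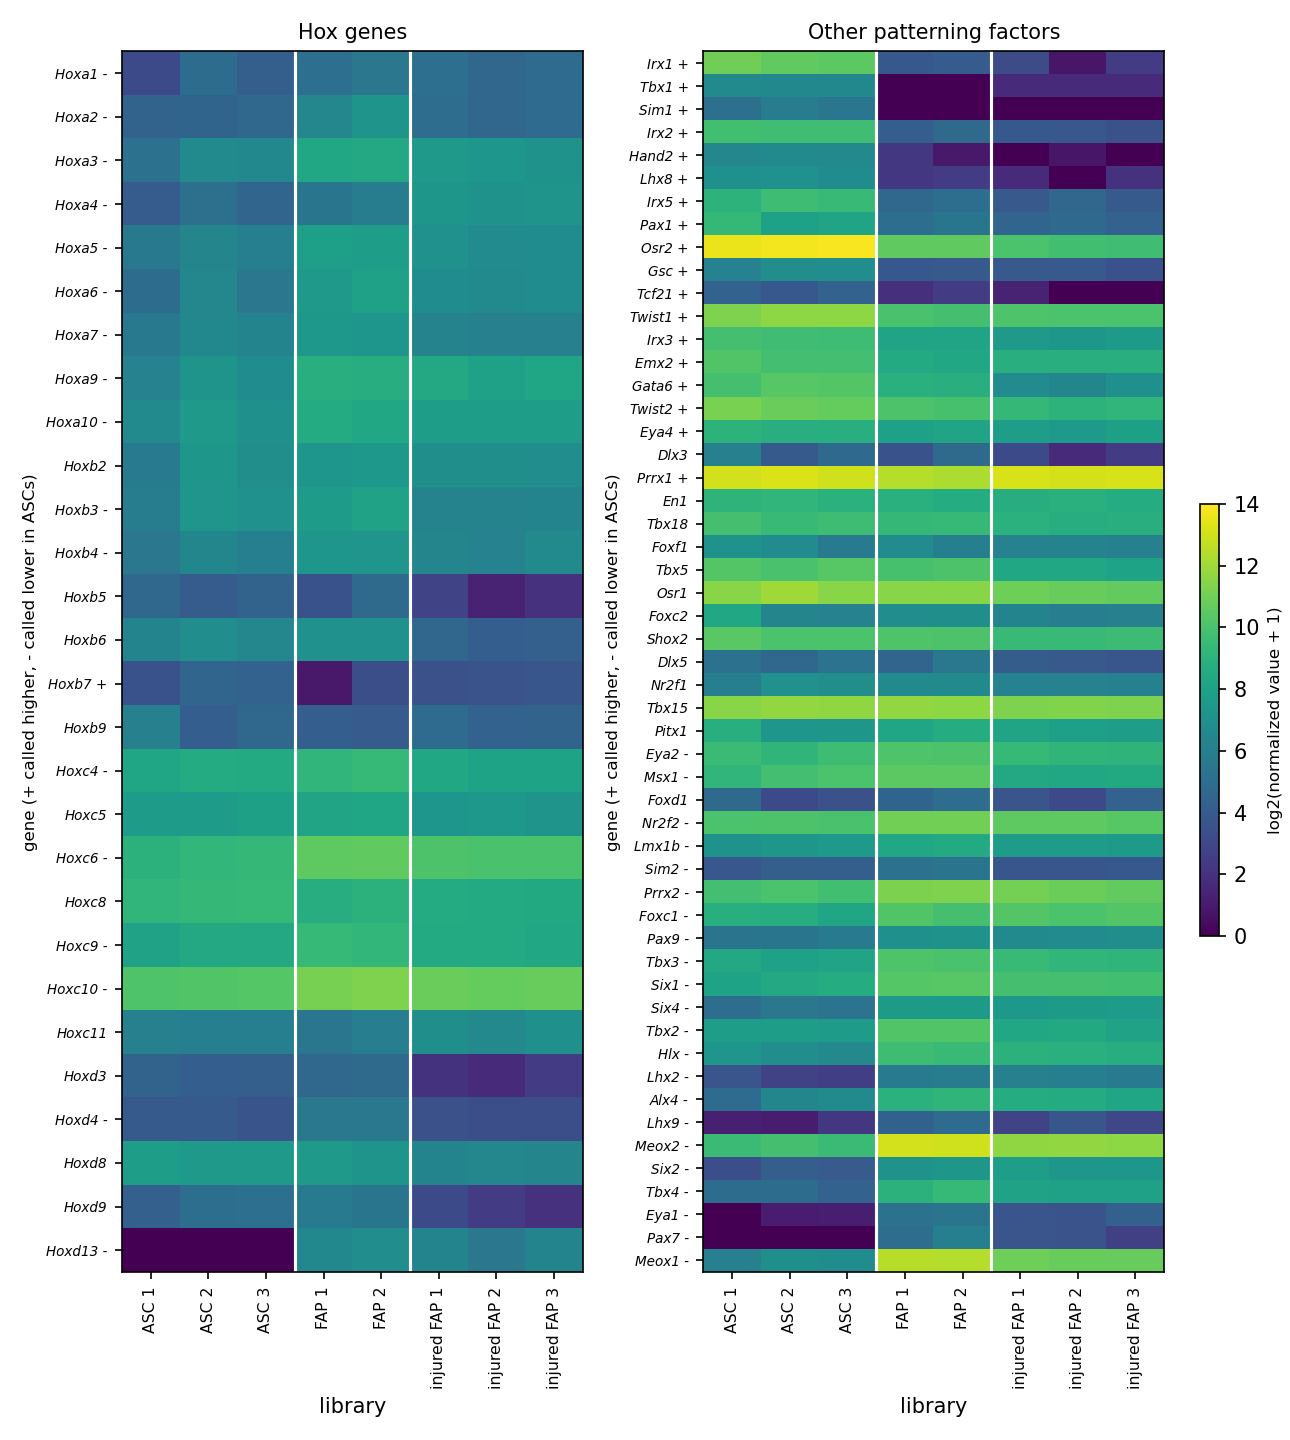
log2(normalized value + 1) of the 28 tested Hox genes and 53 of the other tested patterning factors in each ASC, FAP and injured FAP library, with + for genes called higher and - for genes called lower in ASCs. The 9 HoxA genes are darker in the ASC columns than in the FAP columns, and Irx1, Irx2 and Irx5 are brighter in ASCs than in FAPs.

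Both progenitors are known to form adipocytes. Of 38 tested adipogenic regulators 10 were called higher and 10 lower (26.3% each, close to the 23.4% and 24% of all genes), with a median of -0.06 (8 higher and 20 lower, median -0.63, with total reads). Bmp7, a BMP ligand associated with brown and beige fat, was at 2944, 2395 and 4008 in ASCs and 203 and 298 in FAPs (log2 fold change 3.62, adjusted p 7.42e-07). Wnt10b, a Wnt ligand that restrains adipogenesis and was chosen after its values were seen, was at 648, 627 and 939 in ASCs and 148 and 197 in FAPs (log2 fold change 2.08, adjusted p 2.28e-05). Cebpd, an early factor of the programme, was at 18584, 17526 and 17584 in ASCs and 18493 and 12814 in FAPs (log2 fold change 0.22, adjusted p 0.266). So a ligand on either side of adipogenic control was higher in ASCs while Cebpd did not differ detectably. None of the 10 members called lower is among these genes, which do not stand for the whole list.

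Genes of mature adipocytes leaned to ASCs. Of 31 tested members 16 (51.6%) were called higher and 6 (19.4%) lower, against 23.4% and 24% of all genes. The median was 1.12, positive under each scaling tried (12 higher and 9 lower with total reads). Of them 6 passed the filter through ASCs alone and 1 through FAPs alone, which sets part of the counts. Adipoq, the adiponectin gene, was at 44.8, 44.2 and 37.7 in ASCs and 0.951 and 8.47 in FAPs (log2 fold change 3.33, adjusted p 0.0022, and 2.19 without FAP replicate 1). Plin1, which coats lipid droplets and was chosen after its values were seen, was at 46.1, 37.4 and 57.7 in ASCs and 9.51 and 9.41 in FAPs (log2 fold change 2.18, adjusted p 0.00295). Ucp1, the uncoupling protein of brown and beige adipocytes, was at 55.3, 13.6 and 23.9 in ASCs and 0 and 1.88 in FAPs (log2 fold change 4.01, adjusted p 0.00121). These defining genes were low even in ASCs, with 57.7 the highest value. Lpl, the lipoprotein lipase gene and the most abundant member, was at 27978, 21036 and 32007 in ASCs and 15461 and 13186 in FAPs (log2 fold change 0.90, adjusted p 0.000809), a call lost at 0.10 with quantile normalization and 0.33 with total reads. In the other direction, Slc2a4, the insulin-responsive glucose transporter gene of muscle and fat, was at 15.8, 6.80 and 7.53 in ASCs and 167 and 167 in FAPs (log2 fold change -4.02, adjusted p 1.3e-05). Fabp4, chosen after its values were seen, was at 677, 751 and 564 in ASCs and 792 and 179 in FAPs and was not called, but was called higher (1.88) without FAP replicate 1. The summed adipocyte list was 89497, 80193 and 90644 in ASCs and 58142 and 51016 in FAPs, and the list was at 238347 in CD31+CD45+ cells. Floating adipocytes were removed before the selection, and the part of adipocytes or their RNA in these values was not tested.

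Collagen genes made up 11.4%, 12.9% and 13.1% of all values in ASCs and 10.8% and 11.7% in FAPs. Among 38 tested chains 8 (21.1%) were called higher and 16 (42.1%) lower in ASCs, against 23.4% and 24% of all genes. The median was -0.30. Of the chains 1 passed the filter through ASCs alone and 6 through FAPs alone, which sets part of these shares. The counts were 3 higher and 20 lower (median -0.66) with quantile normalization and 3 higher and 22 lower (median -0.86) with total reads. The higher members included fibrillar chains. Col1a1 was at 1554050.0, 1204980.0 and 1467590.0 in ASCs and 730860.0 and 902332 in FAPs (log2 fold change 0.79, adjusted p 0.0283). The call of Col1a1 was lost without ASC replicate 1 (0.71) or 3 (0.75), without FAP replicate 1 (0.63), and without any 1 injured FAP library (0.79 in each case). It was also lost with no filter, with only the 5 libraries in the fit (0.79), quantile normalization (0.11), the 75th percentile (0.58) and total reads (0.22). Col3a1, the chain of type III collagen, was chosen after its values were seen and was at 926328, 1132270.0 and 1217420.0 in ASCs and 495456 and 472792 in FAPs (log2 fold change 1.16, adjusted p 0.00235), a call lost at 0.30 with quantile normalization. The type VI chains below were not called, Col6a1 at 0.21, Col6a2 at 0.02 and Col6a3 at 0.25, although Col6a2 was called lower (-0.63) with quantile normalization. Among the lower chains, Col11a1, a fibrillar chain of cartilage and tendon, was at 1933 and 2359.5 in FAPs and 27.7, 13.6 and 10 in ASCs (log2 fold change -7.00, adjusted p 1.09e-07). Col22a1, a chain of the junction between muscle and tendon, was at 154 and 223 in FAPs and 0, 2.27 and 0 in ASCs (log2 fold change -6.97, adjusted p 1.65e-06). Both chains were near 0 in ASCs and clearly present in both FAP libraries.

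Tendon, fascia and cartilage-type matrix was mostly lower in ASCs. Of 41 tested genes 7 (17.1%) were called higher and 26 (63.4%) lower, against 23.4% and 24% of all genes. The median was -1.87, negative under each scaling tried. Among the 41, 3 passed the filter through FAPs alone and had to differ. Fmod, the collagen-binding proteoglycan fibromodulin, was at 119690.0 and 144393 in FAPs and 2221, 1646 and 1332 in ASCs (log2 fold change -6.28, adjusted p 1.89e-08). Thbs4, a thrombospondin of tendon and muscle attachment, was at 115741 and 109172 in FAPs and 859, 777 and 719 in ASCs (log2 fold change -7.16, adjusted p 1.79e-10). Kera, the proteoglycan keratocan, was at 6671 and 9200.0 in FAPs and 44.8, 47.6 and 50.2 in ASCs (log2 fold change -7.34, adjusted p 1.61e-09). Each fell by more than 6 on the log2 scale with ASC values that were close together. Dcn, the proteoglycan decorin and the most abundant member, was at 356916, 277273 and 339279 in ASCs and 234756 and 223783 in FAPs and was not called (log2 fold change 0.49, adjusted p 0.0396), except without ASC replicate 2 (0.60).

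Transcription factors of tendon cells, Scx and Mkx, were lower too. Scx, which encodes the tendon factor scleraxis, was at 597 and 582 in FAPs and 9.22, 4.53 and 7.53 in ASCs (log2 fold change -6.24, adjusted p 9.71e-08). Mkx, a homeobox factor of tendon, was at 242 and 314 in FAPs and 3.95, 3.40 and 11.3 in ASCs (log2 fold change -5.43, adjusted p 1.88e-06). Tnmd, the tenomodulin gene of mature tenocytes, was at 3792 and 4542 in FAPs and 117, 149.5 and 192 in ASCs (log2 fold change -4.78, adjusted p 4.26e-08). All 10 markers of a tenocyte list were called lower, with a median of -6.04, and 3 of them passed the filter through FAPs alone. Of these, 8 are also in other lists, such as the matrix list above. The summed tenocyte markers were 7236, 5457 and 4479 in ASCs and 275184 and 301215 in FAPs, led by Fmod in FAPs and by Cpxm2 in ASCs (3355, 2240.3 and 1756). None of the markers was at 0 throughout a group. The part of tenocytes in the matrix result was not tested.

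Genes of the basement membrane and of adhesion were called in both directions. Of 42 tested genes 16 (38.1%) were called higher and 13 (31.0%) lower, against 23.4% and 24% of all genes. The median of 0.03 turned negative with quantile normalization (-0.38), the 75th percentile (-0.17), total reads (-0.53) and edgeR (-0.01). The counts were 8 higher and 20 lower with quantile normalization and 10 higher and 20 lower with total reads. Fn1, the fibronectin gene and the most abundant member in ASCs, was at 583124, 415413 and 645177 in ASCs and 94114 and 106576 in FAPs (log2 fold change 2.43, adjusted p 8.71e-06). The laminin chain genes Lama3 and Lama5 were lower. Lama3 was at 327 and 357 in FAPs and 7.90, 6.80 and 11.3 in ASCs (log2 fold change -5.17, adjusted p 1.74e-07) and Lama5 at 1366 and 1476 in FAPs and 130.4, 30.6 and 36.4 in ASCs (log2 fold change -4.72, adjusted p 1.87e-05). Lama5 was abundant in the CD31+CD45+ library (15675), and the part of endothelial cells in its fall was not tested.

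Matrix proteases and their inhibitors were called in both directions. Of 43 tested, 23 (53.5%) were higher and 14 (32.6%) lower, against 23.4% and 24% of all genes, with a median of 0.80. Among the 43, 2 passed the filter through ASCs alone and 3 through FAPs alone and had to differ. The counts were 17 higher and 13 lower (median 0.18) with quantile normalization and 15 higher and 15 lower (median 0.24) with total reads. Mmp3, the stromelysin gene, was at 17795, 19397 and 13301 in ASCs and 951 and 659 in FAPs (log2 fold change 4.39, adjusted p 6.9e-08). Plat, the tissue plasminogen activator gene chosen after its values were seen, was at 33949.6, 21914 and 28861 in ASCs and 3089 and 3086 in FAPs (log2 fold change 3.17, adjusted p 2.54e-07). Plaur, the urokinase receptor gene, was at 6699, 2830.4 and 2358 in ASCs and 365 and 262 in FAPs (log2 fold change 3.51, adjusted p 1.73e-05). Serpine2, an inhibitor of plasminogen activators, was not called (-0.47), except lower with quantile normalization (-1.08), the 75th percentile (-0.68) and total reads (-1.04).

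Wnt ligands, receptors and antagonists were called in equal numbers in either direction. 47 of 62 listed genes in the table passed the filter, and 14 were called higher and 14 lower. These are 29.8% in each direction, against 23.4% and 24% of all genes. The median of 0.04 turned negative with the 75th percentile (-0.16) and total reads (-0.50) and to near 0 with edgeR (11 higher and 21 lower with total reads). Among secreted antagonists, Sfrp2 was higher at 28921, 25963 and 38086 in ASCs and 8071 and 13308 in FAPs (log2 fold change 1.56, adjusted p 0.000172). Frzb and Dkk3 were lower, with Frzb at 34.2 and 50.8 in FAPs and 0, 3.40 and 5.02 in ASCs (log2 fold change -3.84, adjusted p 0.00184) and Dkk3, chosen after its values were seen, at 1362 and 1609.7 in FAPs and 655, 374 and 267 in ASCs (log2 fold change -1.87, adjusted p 0.000353). These antagonists thus differed in direction, with Sfrp2 higher in ASCs and Wif1, Frzb and Dkk3 higher in FAPs.

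Of 60 tested TGF-beta and BMP pathway genes 19 (31.7%) were called higher and 22 (36.7%) lower, against 23.4% and 24% of all genes. The median of -0.03 was negative under the scalings tried (13 higher and 28 lower, median -0.60, with total reads). BMP ligands went in opposite directions. Bmp8a was at 908, 391 and 466 in ASCs and 12.4 and 5.64 in FAPs (log2 fold change 5.87, adjusted p 2.96e-06). Bmp5 was at 3062 and 2263 in FAPs and 52.7, 52.1 and 50.2 in ASCs (log2 fold change -5.64, adjusted p 4.17e-09), and Bmp4, chosen after its values were seen, was at 1735 and 1727 in FAPs and 606, 643 and 738 in ASCs (log2 fold change -1.39, adjusted p 4.43e-06). With Bmp7, described above, 2 of these 4 ligands were higher and 2 lower in ASCs.

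Of 49 tested secreted growth factors 21 (42.9%) were called higher and 13 (26.5%) lower, against 23.4% and 24% of all genes. Their median was 0.39 (16 higher and 19 lower, median -0.18, with total reads). Among the 49, 4 passed the filter through ASCs alone and 2 through FAPs alone. Gdnf, a trophic factor of neurons and enteric nerves, was at 262, 144 and 132 in ASCs and 7.61 and 10.3 in FAPs (log2 fold change 4.12, adjusted p 3.11e-06). The angiogenic ligand genes Vegfa and Vegfd were chosen after their values were seen. Vegfa was at 19739, 10908 and 13243 in ASCs and 2883 and 3294 in FAPs (log2 fold change 2.2, adjusted p 8.6e-06) and Vegfd at 4129, 3914 and 3669 in ASCs and 269 and 283 in FAPs (log2 fold change 3.82, adjusted p 9.71e-08). For these 3 ligands the lowest ASC value was far above the highest FAP value. Pdgfb, a ligand that recruits mural cells, was at 249 and 132 in FAPs and 6.59, 9.06 and 3.77 in ASCs (log2 fold change -4.67, adjusted p 1.43e-05) and at 10553 in CD31+CD45+ cells. The most abundant member, Igfbp5, an IGF binding protein gene, was at 141287, 96282 and 148158 in ASCs and 138738 and 170118 in FAPs and was not called (log2 fold change -0.28, adjusted p 0.26), except lower at -1.19 with quantile normalization and -0.85 with total reads.

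Axon guidance genes leaned to FAPs. Of 51 tested, 14 (27.5%) were called higher and 29 (56.9%) lower in ASCs, against 23.4% and 24% of all genes. The median was -0.86 (10 higher and 34 lower, median -1.43, with total reads). Slit3, a Slit ligand and the most abundant member, was at 46005, 37359 and 44332 in ASCs and 14262 and 14174 in FAPs (log2 fold change 1.58, adjusted p 3.72e-06). Robo2, a receptor of Slits, was at 261 and 197 in FAPs and 3.95, 5.66 and 1.26 in ASCs (log2 fold change -5.76, adjusted p 2.29e-06). The ligand Slit3 was thus higher and the receptor Robo2 lower in ASCs. Ntn1, the netrin gene, was at 12947, 10846 and 13145 in ASCs and 12359 and 12109.9 in FAPs (log2 fold change 0.00, adjusted p 0.979) and was called lower (-0.63) with quantile normalization.

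Hormone receptors followed no common direction. Of 43 tested, 14 (32.6%) were called higher and 11 (25.6%) lower, against 23.4% and 24% of all genes. The median of -0.02 was positive (0.07) with quantile normalization, and 7 were called higher and 22 lower with total reads. Esr1, the estrogen receptor alpha gene, chosen after its values were seen, was higher in ASCs, at 3927, 4031 and 3323 in ASCs and 694 and 807 in FAPs (log2 fold change 2.32, adjusted p 2.54e-07), and the groups did not overlap. Lepr, the leptin receptor gene, was lower in ASCs, at 948 and 984 in FAPs and 138, 112 and 87.9 in ASCs (log2 fold change -3.11, adjusted p 5.48e-07). Rarg and Thra, receptors of retinoic acid and thyroid hormone, were not called (-0.02 and -0.23), but both were called lower with quantile normalization (-0.60 and -0.77) and total reads (-0.59 and -0.80).

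Enzymes of retinoid, steroid and xenobiotic metabolism were called higher in 25 (51.0%) and lower in 10 (20.4%) of 49 tested genes, against 23.4% and 24% of all genes. The median was 0.62 (16 higher and 17 lower, median 0.05, with total reads), so the excess of higher genes depends on the scaling. Akr1c18, an aldo-keto reductase that inactivates progesterone, was at 1385, 1198 and 1409.8 in ASCs and 10.5 and 16 in FAPs (log2 fold change 6.57, adjusted p 1.04e-07). Sult1e1, which sulfates estrogens, was at 1573, 1964 and 4275 in ASCs and 55.2 and 41.4 in FAPs (log2 fold change 5.60, adjusted p 1.31e-06), with its highest value in ASC replicate 3. Enzymes that make retinoic acid differed by isoform. Aldh1a3 was at 5555, 3693 and 4538 in ASCs and 255 and 297 in FAPs (log2 fold change 4.04, adjusted p 9.84e-08), whereas Aldh1a2 was at 864 and 1033 in FAPs and 182, 168 and 256 in ASCs (log2 fold change -2.25, adjusted p 4.63e-06). Both were chosen after their values were seen. Cyp26a1, which degrades retinoic acid, was at 89.4 and 115 in FAPs and 0, 2.27 and 0 in ASCs (log2 fold change -6.11, adjusted p 6.9e-06). So ASCs held more of Aldh1a3, and FAPs more of Aldh1a2 and Cyp26a1.

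Chemokines and cytokines were mostly higher in ASCs. Of 56 listed genes 41 passed the filter. Of these, 23 (56.1%) were called higher and 11 (26.8%) lower, against 23.4% and 24% of all genes. The median of 1.75 was positive under each scaling tried, and 3 passed the filter through ASCs alone and 2 through FAPs alone. The summed list was 429821, 355374 and 298158 in ASCs and 69003 and 62828 in FAPs. Cxcl1, a neutrophil attractant and the most abundant member in ASCs, was at 104733, 99092 and 82031 in ASCs and 4793 and 3009 in FAPs (log2 fold change 4.64, adjusted p 9.84e-08). Cxcl2, its close relative, was at 5657, 4390.0 and 3828 in ASCs and 21.9 and 42.3 in FAPs (log2 fold change 7.18, adjusted p 2.25e-08). Ccl2, which attracts monocytes, was at 70413, 55798 and 41304 in ASCs and 1079 and 964 in FAPs (log2 fold change 5.74, adjusted p 2.61e-08). Each ASC library was far above both FAP libraries for these 3 genes. Injured FAPs reached a mean of 56183 for Cxcl1, 6517 for Cxcl2 and 36125 for Ccl2. The comparison of injured with non-injured FAPs uses the same FAP libraries, so the values are set side by side and no overlap is given. Cxcl13, an attractant of B cells, was at 4026, 8308 and 2432 in ASCs and 179.7 and 96.9 in FAPs (log2 fold change 5.03, adjusted p 1.12e-05). Il6, Csf1 and Tnf were chosen after their values were seen. Il6 was at 20777, 19198 and 14928 in ASCs and 1000.3 and 652 in FAPs (log2 fold change 4.49, adjusted p 9.84e-08) and Csf1, the macrophage growth factor gene, was at 65682, 40475 and 37155 in ASCs and 9106 and 8344 in FAPs (log2 fold change 2.41, adjusted p 7.31e-06). Tnf went the other way, at 82.7 and 125 in FAPs and 14.5, 11.3 and 10 in ASCs (log2 fold change -3, adjusted p 0.000747), and Cxcl12 was at 18738, 12180.1 and 11635 in ASCs and 9694 and 9524 in FAPs and was not called (log2 fold change 0.53, adjusted p 0.0263). Cxcl12 was called higher without ASC replicate 2 (0.62) or 3 (0.65) and with the replicate block (0.59).

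Promoters of the chemokine and cytokine genes were searched for the letters GGGNNTTTCC, a core of NF-kappaB motifs, and GGAAANNCCC on the other strand. The window was 250 bases before to 50 bases after the start, taken from RefSeq on GRCm38.p6. The motif was found in a promoter of 1.89% of 27025 genes, of 2.09% of the tested genes and in 9 of 40 listed genes with a promoter in the table (22.5%), and in 6 of the 18 called higher. The motifs were chosen after the results of the lists were seen. A match is a description of the letters and shows neither binding nor a cause. The promoters of Cxcl1 (chr5:90890995-90891294, plus strand) and Cxcl2 (chr5:90903649-90903948, plus strand) are shown because Cxcl1 was the most abundant member in ASCs and Cxcl2 is its close relative, with the matches in capitals.
Cxcl1: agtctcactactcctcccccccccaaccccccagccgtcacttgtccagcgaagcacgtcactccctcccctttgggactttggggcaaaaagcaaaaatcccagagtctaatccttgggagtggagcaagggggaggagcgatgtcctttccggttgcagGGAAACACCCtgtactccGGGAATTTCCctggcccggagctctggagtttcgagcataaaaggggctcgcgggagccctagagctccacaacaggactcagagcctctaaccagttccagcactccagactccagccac
Cxcl2: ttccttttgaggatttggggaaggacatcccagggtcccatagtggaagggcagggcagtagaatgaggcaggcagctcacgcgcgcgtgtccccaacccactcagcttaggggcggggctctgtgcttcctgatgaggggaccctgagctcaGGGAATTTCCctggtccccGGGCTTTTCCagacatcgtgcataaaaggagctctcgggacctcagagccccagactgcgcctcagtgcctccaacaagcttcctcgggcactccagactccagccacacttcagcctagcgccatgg
Both promoters held 2 matches.

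Complement components were abundant in both tissues and took 2.94%, 2.72% and 2.86% of all values in ASCs and 1.15% and 1.10% in FAPs. Of 26 tested genes 13 (50%) were called higher and 7 (26.9%) lower, against 23.4% and 24% of all genes. The median of 0.81 was 0.25 with total reads, where the counts were 12 higher and 11 lower. Of the 26, 3 passed the filter through ASCs alone and 2 through FAPs alone. C3, the central component, was at 515965, 446295 and 495854 in ASCs and 63347 and 54639 in FAPs (log2 fold change 3.04, adjusted p 6.32e-07). C4b was at 82000.2, 54559 and 67049.5 in ASCs and 5084 and 4352 in FAPs (log2 fold change 3.83, adjusted p 1.06e-07). Serping1, the inhibitor of the C1 complex, was at 262086, 181517 and 213230.0 in ASCs and 102167 and 96528 in FAPs (log2 fold change 1.12, adjusted p 0.0003, and not called at 0.56 with total reads). The components C3 and C4b thus rose more than the inhibitor.

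Interferon-stimulated genes rose almost as a block. Of 46 tested members 40 (87.0%) were called higher and 0 lower, with a median of 2.04 (31 higher and 0 lower, median 1.47, with total reads), and 3 passed the filter through ASCs alone. The summed list was 124290.0, 109112 and 96745 in ASCs and 23245 and 21825 in FAPs. Ifit1, which binds foreign RNA, was at 9849, 3664 and 4886 in ASCs and 325 and 235 in FAPs (log2 fold change 4.34, adjusted p 2.92e-06). Rsad2, the antiviral enzyme viperin, was at 1349, 958 and 605 in ASCs and 30.4 and 62.1 in FAPs (log2 fold change 4.37, adjusted p 3.42e-06). For both genes the lowest ASC value was far above the highest FAP value. Isg15, a ubiquitin-like protein gene chosen after its values were seen, was at 1612, 1757 and 776 in ASCs and 122 and 136 in FAPs (log2 fold change 3.32, adjusted p 1.09e-05). Oas2 was not called (0.71), except without ASC replicate 3 (1.31).

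Promoters of the interferon-stimulated genes were searched for GAAANNGAAA and, on the other strand, TTTCNNTTTC, the core letters of the interferon-stimulated response element. In the same window 3.99% of the 27025 genes and 3.70% of the tested genes had a promoter with the motif, against 22 of 36 listed genes with a promoter in the table (61.1%) and 19 of the 32 called higher. Matches of this motif and of the NF-kappaB letters overlapped in 3 promoters, none of a listed gene. The promoters of Isg15 (chr4:156200769-156201068, minus strand) and Ifit1 (chr19:34640639-34640938, plus strand) are shown as examples of genes that rose together, with the matches in capitals.
Isg15: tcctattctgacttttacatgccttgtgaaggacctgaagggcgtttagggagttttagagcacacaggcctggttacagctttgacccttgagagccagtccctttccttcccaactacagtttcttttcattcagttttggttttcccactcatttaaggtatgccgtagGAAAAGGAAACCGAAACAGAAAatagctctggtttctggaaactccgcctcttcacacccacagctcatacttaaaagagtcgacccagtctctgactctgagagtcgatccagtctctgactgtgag
Ifit1: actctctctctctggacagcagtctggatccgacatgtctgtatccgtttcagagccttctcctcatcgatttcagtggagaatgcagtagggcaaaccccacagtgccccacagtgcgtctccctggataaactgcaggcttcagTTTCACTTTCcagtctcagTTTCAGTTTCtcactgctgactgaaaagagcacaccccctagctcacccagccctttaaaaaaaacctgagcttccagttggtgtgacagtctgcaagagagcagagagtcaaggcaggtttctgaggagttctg
Isg15 held 3 matches and Ifit1 held 2.

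Immediate early genes, which respond within minutes to growth signals and to tissue dissociation, were high in both groups and took 4.49%, 5.15% and 5.33% of all values in ASCs and 4.28% and 3.86% in FAPs. Of 64 tested genes 37 (57.8%) were called higher and 9 (14.1%) lower, against 23.4% and 24% of all genes. The median of 0.86 fell to 0.30 with total reads, where the counts were 28 higher and 18 lower. Fosb was at 276176, 239474 and 307554 in ASCs and 40712 and 38509 in FAPs (log2 fold change 2.79, adjusted p 1.31e-06). Fosl1, which encodes the AP-1 subunit Fra-1, was at 28364, 10329 and 13499 in ASCs and 246 and 175 in FAPs (log2 fold change 6.24, adjusted p 2.81e-07). Fos itself was at 44525, 85172 and 85647 in ASCs and 77953 and 64043 in FAPs (log2 fold change -0.04, adjusted p 0.909) and Egr1 at 111363, 145408 and 159995 in ASCs and 161561 and 163772 in FAPs (log2 fold change -0.24, adjusted p 0.308), and neither was called, although Egr1 was called lower at -1.06 with quantile normalization and -0.81 with total reads. The AP-1 genes Fosb, Fosl1 and Fos thus ranged from no detectable difference to a large rise. Myc, Dusp6, Spry4 and Jun were chosen after their values were seen. Myc was at 35722, 25499.5 and 31148 in ASCs and 6473 and 5426 in FAPs (log2 fold change 2.36, adjusted p 1.46e-06). Dusp6 and Spry4, feedback inhibitors of the ERK pathway, were lower, but their relative Dusp10 was higher (3.75). Dusp6 was at 1359.8 and 1447 in FAPs and 175, 294 and 279.9 in ASCs (log2 fold change -2.52, adjusted p 3.52e-06) and Spry4 at 1689 and 2137 in FAPs and 518, 389.6 and 505 in ASCs (log2 fold change -2.02, adjusted p 2.41e-06). Jun was at 96154 and 80669 in FAPs and 29900.1, 63043 and 59023 in ASCs (log2 fold change -0.87, adjusted p 0.0191), with the lowest value in ASC replicate 1, and it was not called without that library (-0.53), without FAP replicate 1 (-0.75) or without FAP replicate 2 (-1).

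Heat shock proteins and chaperones were called higher in 28 (59.6%) and lower in 8 (17.0%) of 47 tested genes, against 23.4% and 24% of all genes. The median of 0.61 fell to 0.09 with quantile normalization and 0.04 with total reads. The counts were 10 higher and 10 lower with quantile normalization and 9 higher and 13 lower with total reads, so the excess of higher genes depends on the scaling. The inducible Hsp70 genes were lower in ASCs. Hspa1b was at 74740.3 and 64923 in FAPs and 6155, 19716 and 11007 in ASCs (log2 fold change -2.66, adjusted p 0.000356). Hspa1a was at 42226 and 40113 in FAPs and 4263, 13716 and 8528 in ASCs (log2 fold change -2.38, adjusted p 0.000687). They are a near-identical pair on chromosome 17, so reads may be shared between them. The constitutive chaperone gene Hspa8 was higher, at 103586, 100762 and 103759 in ASCs and 60967 and 55174 in FAPs (log2 fold change 0.82, adjusted p 0.000625, a call lost at 0.15 with quantile normalization and 0.26 with total reads), and so was Hspb8, a small heat shock protein, at 23155, 16379.8 and 21811 in ASCs and 3496 and 3535 in FAPs (log2 fold change 2.52, adjusted p 4.45e-07).

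Ribosome biogenesis factors were higher in ASCs in 49 (81.7%) of 60 tested genes, with 0 called lower and a median of 1.30 (34 higher and 2 lower, median 0.73, with total reads). Nop58, a core protein of box C/D small nucleolar particles, was at 7086, 5227 and 5606 in ASCs and 687 and 601 in FAPs (log2 fold change 3.20, adjusted p 1.06e-07). Ncl, the abundant nucleolar protein nucleolin, was at 16042, 10736 and 10713 in ASCs and 3356 and 3171 in FAPs (log2 fold change 1.91, adjusted p 7.11e-06). ASC replicate 1 had the highest value of both genes, and every ASC library was above both FAP libraries. Among cell division genes 12 of 49 were called higher (24.5%, close to the 23.4% of all genes) and 2 lower (4.08%, against 24% of all genes). The median of 0.22 turned to -0.33 with scaling to total reads. The counts were 21 higher and 0 lower with quantile normalization and 2 higher and 6 lower with total reads. Pcna, the sliding clamp of DNA replication, was at 2125, 2061 and 1808 in ASCs and 833 and 769.6 in FAPs (log2 fold change 1.31, adjusted p 5.38e-06). The summed division genes were 8236, 11096 and 9322 in ASCs and 6297 and 8185 in FAPs.

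Subunits of the respiratory chain encoded in the nucleus changed little. 15 of 71 tested genes were called higher, a share of 21.1% close to the 23.4% of all genes. However, 0 were called lower, against 24% of all genes, and 63 of the 71 had a positive log2 fold change. The median of 0.27 turned to -0.29 with scaling to total reads, where the counts were 0 higher and 8 lower. The largest rise was that of Ndufa1, a complex I subunit, at 373, 313 and 390.4 in ASCs and 219.7 and 176 in FAPs (log2 fold change 0.86, adjusted p 0.00136, and not called at 0.29 with total reads). Atp5b, the beta subunit of ATP synthase and the most abundant member, was at 9419, 9751 and 8897 in ASCs and 6547 and 5908 in FAPs (log2 fold change 0.59, adjusted p 0.000473). It was not called without ASC replicate 2 (0.56) or FAP replicate 2 (0.51), and not with quantile normalization (-0.07), the 75th percentile (0.38), edgeR (0.54) or total reads (0.02). Housekeeping genes were called higher in 12 of 20 and lower in 0, with a median of 0.70 that fell to 0.49 with the 75th percentile and 0.13 with scaling to total reads, where the counts were 3 higher and 3 lower. Eef1a1, a translation elongation factor and the most abundant of them, was at 195023, 152698 and 159792 in ASCs and 81466 and 72073 in FAPs (log2 fold change 1.13, adjusted p 0.000296, and not called at 0.57 with total reads). Actb, the actin gene, was at 22427, 25634 and 25775 in ASCs and 30085 and 32493 in FAPs (log2 fold change -0.35, adjusted p 0.0308) and was not called, except lower at -1.04 with quantile normalization and -0.92 with total reads. Of 20 mitochondrial genome genes and long nuclear RNAs 5 are in the table and 4 passed the filter. 1 was called higher, Snhg11 (2.81), and the median of 0.27 turned negative with quantile normalization (-0.41) and total reads (-0.29). Malat1, a long nuclear RNA, was at 8422, 11008 and 11130.1 in ASCs and 9141 and 6458 in FAPs and was not called, except without FAP replicate 1 (0.65).

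**Figure D4:**
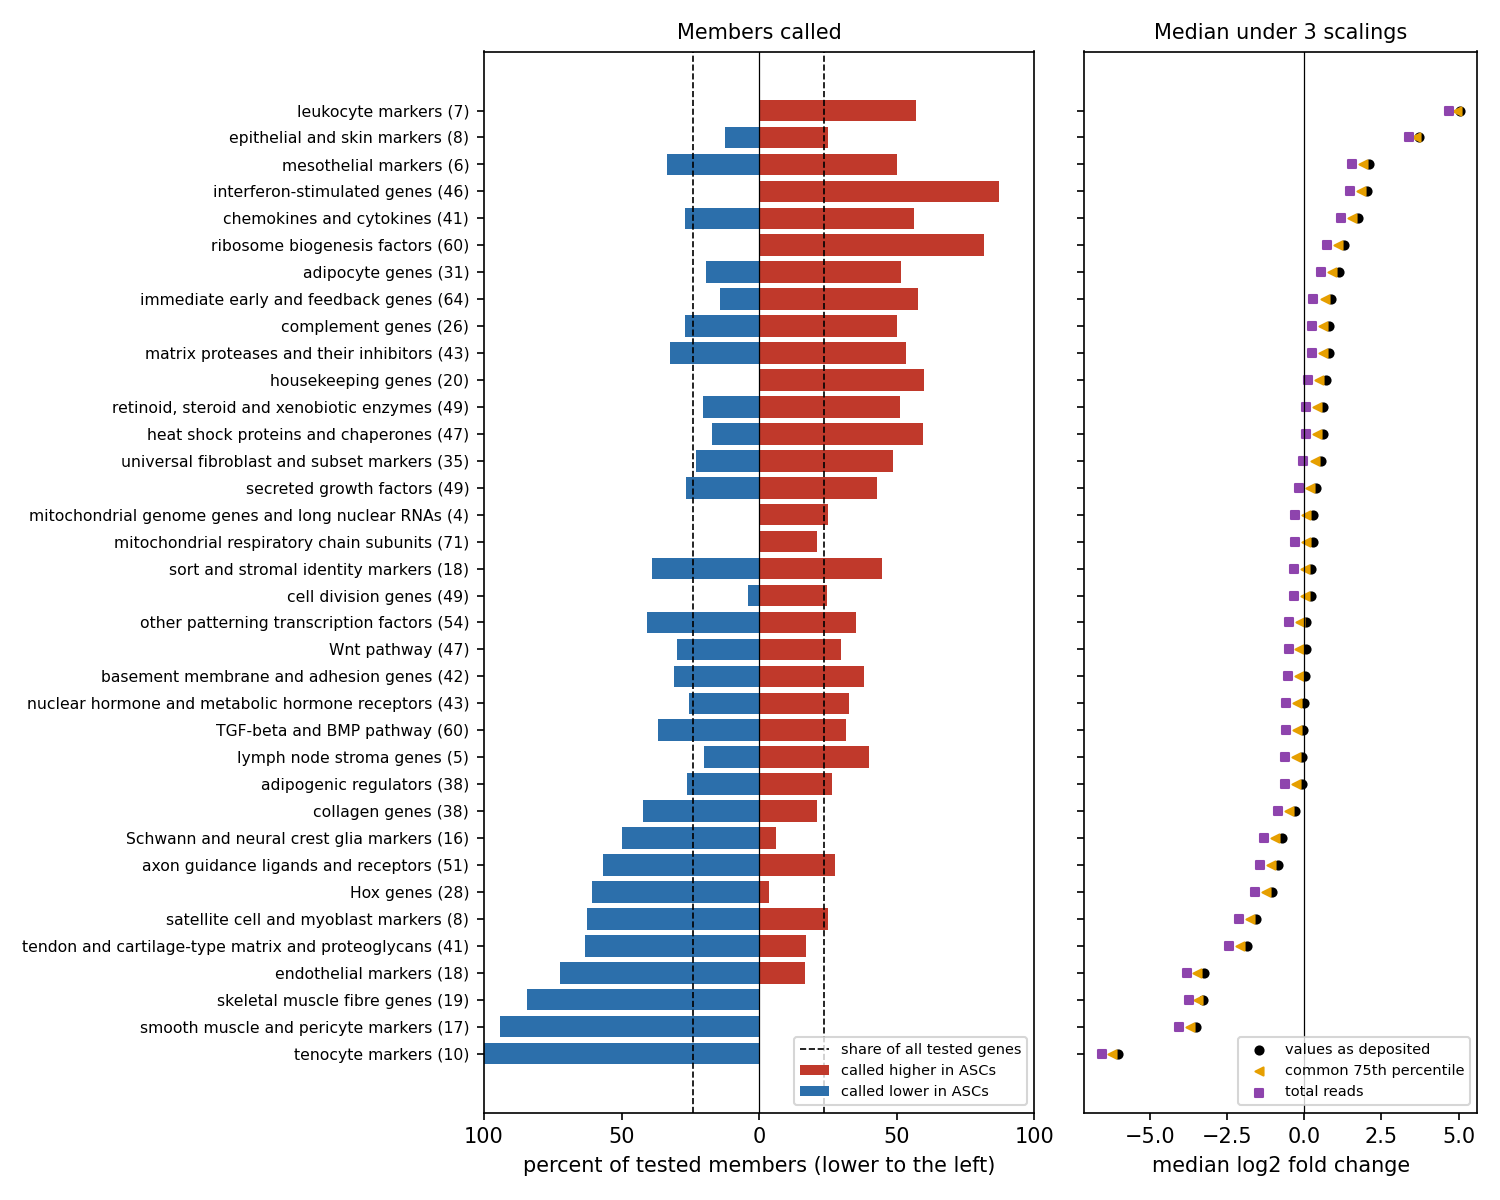
Percent of the tested members of 36 gene lists called higher or lower in ASCs (left, with the number tested in brackets and dashed lines at 23.4% and 24% for all tested genes) and the median log2 fold change of each list as deposited, with a common 75th percentile and with total reads (right). Interferon-stimulated genes and ribosome biogenesis factors lie to the right under the 3 scalings and tenocyte, smooth muscle and muscle fibre markers to the left, while lists near the middle cross 0.

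Markers of other cell types were followed as whole lists because the cells were enriched on magnetic beads. Endothelial genes were present in small amounts, with a sum of 7688, 6165 and 8014 in ASCs and 8839.5 and 6043 in FAPs against 520711 in the CD31+CD45+ library. Of 22 genes 18 passed the filter, 3 were called higher and 13 lower, with a median of -3.27. Only through the values of a single group passed 2 (ASCs) and 5 (FAPs) of them. Tek led the sum in both groups, and without it the sum was 1702, 1324 and 1314 in ASCs and 6719 and 4153 in FAPs. Cdh5, the VE-cadherin gene, was at 1438 and 686 in FAPs and 123, 87.2 and 59.0 in ASCs (log2 fold change -3.52, adjusted p 1.02e-05). Flt1, a VEGF receptor gene, was at 1259.9 and 953 in FAPs and 92.2, 44.2 and 32.6 in ASCs (log2 fold change -4.40, adjusted p 3.11e-06). These defining genes were far lower in ASCs. Other defining genes, Vwf, Emcn, Cldn5, Plvap, Mmrn2 and Lyve1, were at 0 in both FAP libraries and above 0 in each ASC library. Vwf was at 11.9, 2.27 and 7.53 in ASCs and Cldn5 at 17.1, 14.7 and 12.6. Endothelial markers thus did not move together, and the cause was not tested. Their part in the other results was not tested either.

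Leukocyte markers were low, with a sum of 754, 610.5 and 623 in ASCs and 302 and 559.8 in FAPs and 42559.6 in the CD31+CD45+ library. Of 25 genes 7 passed the filter, 4 were called higher and 0 lower, with a median of 5.03 (3.51 with genes at 0 in a group set to their bound). Of those tested, 4 passed only through their ASC values, so the filter set these counts. 20 genes were at 0 in both FAP libraries, Ptprc, Cd74, Lyz2, Adgre1, Csf1r and Cd14 among them. Csf1r, the macrophage growth factor receptor gene, was at 163, 186 and 112 in ASCs, at least 54.1-fold higher. Cd14, a coreceptor for lipopolysaccharide, was at 169, 127 and 158 in ASCs, at least 53.3-fold higher. Cd68, the member with the highest mean, was at 175, 148 and 205 in ASCs and 254 and 477 in FAPs and was not called. It was called lower without FAP replicate 1 (-1.44) or injured FAP replicate 2 (-0.99), with only the 5 libraries in the fit (-0.99), the 75th percentile (-1.20), edgeR (-1.10), DESeq2 (-1.04) and total reads (-1.56), so its call depends on the setting. Cd3e and Ms4a1 were at 0 in all 5 libraries. The part of leukocytes in the other results was not tested.

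Smooth muscle and pericyte markers were lower in ASCs in 16 of 17 genes, with 0 called higher and a median of -3.50 (-3.23 with the gene at 0 set to its bound), and 3 passed the filter through FAPs alone. Their sum was 17135, 14174 and 15367 in ASCs and 49719 and 47066 in FAPs, with Pdgfrb, a gene that fibroblasts also express, the most abundant in both. Rgs5, a pericyte regulator of G protein signals, was at 6148 and 4583 in FAPs and 100.1, 60 and 40.2 in ASCs (log2 fold change -6.39, adjusted p 1.28e-07). Acta2, smooth muscle actin, was at 5396 and 4848 in FAPs and 256, 109.9 and 87.9 in ASCs (log2 fold change -5.23, adjusted p 1e-06). Myh11, smooth muscle myosin, was at 2873 and 2246 in FAPs and 266, 79.3 and 35.2 in ASCs (log2 fold change -4.79, adjusted p 8.42e-05), and in ASCs it was highest in replicate 1. Higd1b, a marker of pericytes, was at 31.4 and 26.3 in FAPs and at 0 in all ASC libraries, at least 7.79-fold lower. The mural markers Rgs5, Acta2 and Myh11 were highest in ASCs at 266 and lowest in FAPs at 2246. In the CD31+CD45+ library Rgs5 was at 40800.3 and Acta2 at 19236. The part of mural cells in the result for Nes, Mcam and Cspg4 and for other genes was not tested.

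Muscle markers were at low values. Of 28 muscle fibre genes 19 passed the filter, and 16 were called lower and 0 higher, with a median of -3.27. Of those tested, 12 passed only through their FAP values and had to differ, so these counts are in part set by the filter. Their sum was 544, 427 and 605 in ASCs and 2594 and 3321 in FAPs, led by the glycogen phosphorylase gene Pygm (1031 and 1522 in FAPs and 183, 128 and 196 in ASCs). Acta1, skeletal actin, was at 271 and 246 in FAPs and 11.9, 7.93 and 8.79 in ASCs (log2 fold change -4.64, adjusted p 3.73e-07), and Ckm, muscle creatine kinase, was at 86.5 and 64.0 in FAPs and 1.32, 2.27 and 1.26 in ASCs (log2 fold change -4.87, adjusted p 2.79e-06). Tcap, Myot and Pgam2 were at 0 in all ASC libraries. Of 15 satellite cell and myoblast markers 8 were tested, and 2 of these passed the filter through FAPs alone and had to differ. The markers were called higher in 2 and lower in 5 genes, with a median of -1.57. Their sum was 11270.0, 9197 and 8535 in ASCs and 6769 and 6662 in FAPs, led by Sdc4, a syndecan of many cells (6614, 4657 and 3443 in ASCs and 2693 and 2344 in FAPs), whose call as higher was lost with quantile normalization and total reads. Pax7, the defining factor of satellite cells, was at 31.4 and 65.9 in FAPs and at 0 in all ASC libraries, at least 13.1-fold lower (8.47 without FAP replicate 2). Myog was at 0 in all 5 libraries. The part of fibres and satellite cells in the other results was not tested.

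Schwann cell and glia markers were called lower in 8 and higher in 1 of 16 tested genes, with a median of -0.74 (1 higher and 12 lower with total reads). Their sum was 26293, 23302 and 26014 in ASCs and 20950.1 and 21396 in FAPs, led by Pmp22, which is widely expressed and was not called (-0.19), except lower at -0.85 with quantile normalization and -0.76 with total reads. Without Pmp22 the sum was 11720.5, 11222 and 12339 in ASCs and 5693 and 6030 in FAPs. That remaining sum was thus higher in ASCs, although most of the calls were lower. Sox10, the defining factor of the lineage, was at 50.4 and 81.8 in FAPs and 14.5, 20.4 and 8.79 in ASCs (log2 fold change -2.14, adjusted p 0.00145). Pmp2 was at 0 in all ASC libraries. Lymph node stroma genes, relevant because subcutaneous fat holds lymph nodes, had sums of 14350.0, 17059 and 10902 in ASCs and 9913 and 9505 in FAPs, with Mfge8 (7270.5, 5408 and 5794 in ASCs and 6562 and 6336 in FAPs) the highest on average. 2 of 5 tested genes were called higher and 1 lower, with a median of -0.06 (2 higher and 3 lower, median -0.63, with total reads). The call of Il7 as lower (-1.04) was lost with no filter, quantile normalization, only the 5 libraries in the fit and the replicate block. It was also lost without ASC replicate 3, FAP replicate 1 or any 1 injured FAP library. The chemokine genes Ccl19 and Ccl21a and the B cell gene Fcer2a were at 0 in all 5 libraries, while Cxcl13 was high in ASCs as given above. The part of these cells was not tested.

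Mesothelial and epithelial genes varied among the ASC libraries. The mesothelial sum was 1631, 554 and 906 in ASCs and 521 and 579 in FAPs. Of 6 tested genes 3 were called higher and 2 lower, with a median of 2.10. Among the 6, 2 passed the filter through ASCs alone and 1 through FAPs alone and had to differ, which sets part of these counts. Cldn15, the most abundant member, lost its call as lower without ASC replicate 1 (-0.52), FAP replicate 1 (-0.97) or FAP replicate 2 (-0.80). The defining genes Msln and Wt1 were near the limit, at 10.5, 4.53 and 11.3 in ASCs and 23.8 and 34.8 in FAPs for Msln and 7.90, 2.27 and 0 in ASCs and 2.85 and 0 in FAPs for Wt1. Msln was not called without FAP replicate 2 (-1.43). The epithelial sum was 1819, 71.4 and 498 in ASCs and 119.8 and 149 in FAPs, and 2 of 8 tested genes were called higher and 1 lower, with a median of 3.73 (3.75 with genes at 0 in a group set to their bound). Only through their ASC values passed 5 of the epithelial genes. Krt18, a keratin of simple epithelia, was at 348, 0 and 121 in ASCs and at 0 in FAPs. Its call was lost without ASC replicate 1 (3.46) or 3 (4.22), and without either FAP library or injured FAP replicate 1 or 3 (5.12 in each case). It was also lost with no filter, with only the 5 libraries in the fit and with the replicate block (4.72). Cldn4 was at 628, 0 and 80.3 in ASCs and was called higher without ASC replicate 2 (6.85). Epcam was at 88.3, 0 and 21.3 in ASCs and was called higher without ASC replicate 2 (5.48). Both were also called higher with edgeR and DESeq2, and Epcam with the other scalings tried. These genes were highest in ASC replicate 1, lower in replicate 3 and at 0 in replicate 2. The skin keratin genes Krt5, Krt14 and Krt17 were at 0 to a few units. Without ASC replicate 1 the counts over all genes were 3012 higher and 3129 lower, and 5852 of the 6452 calls were kept.

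**Figure D5:**
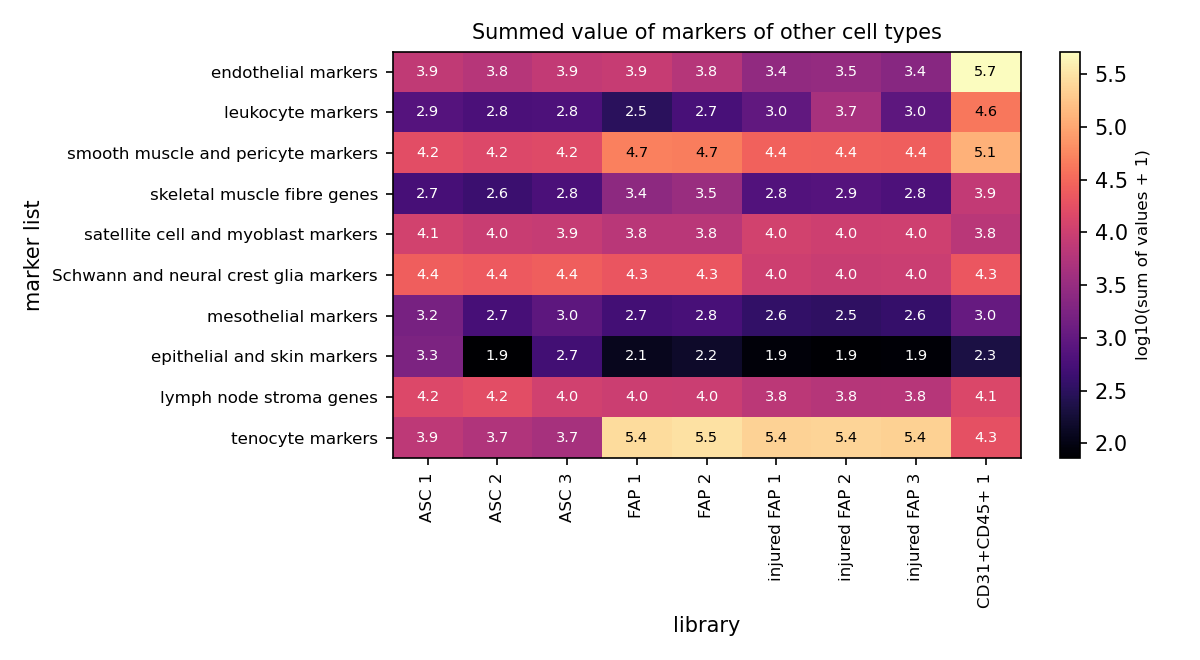
Summed value of the markers of 10 other cell types in each ASC, FAP, injured FAP and CD31+CD45+ library, as log10(sum + 1) in color and in the cells. The tenocyte and smooth muscle sums are higher in FAPs than in ASCs, the endothelial sum is highest in the CD31+CD45+ library, and the epithelial sum is above 3 on this scale only in ASC replicate 1.

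The comparison rests on 2 FAP libraries, so a value of a single library weighs heavily in that group, as Pecam1, Cd36 and Fabp4 show. The libraries hold pooled cells, and whether those of a group had separate pools is not stated. The number of independent animals behind a difference is therefore not known. Adipose tissue and muscle were taken and digested separately, and the effect of the procedure on immediate early, heat shock and chemokine genes was not tested. Zeros listed for abundant genes in single libraries, such as Cd36 in FAP replicate 2, and for whole groups, such as Plvap in FAPs, were taken as given, and their cause was not tested.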

How the data were processed

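The signal values are the authors' deposited normalized counts. As the authors describe, reads were filtered with fastq_illumina_filter 0.1, inspected with FastQC 0.11.9, aligned to the mouse genome with HISAT2 2.2.1, counted per gene of the UCSC annotation with featureCounts of Subread 2.0.1 and normalized with DESeq2 1.34.0. The size factors, strand settings and the handling of reads with several matches are not named there. Every value was a whole multiple, within 0.05 reads, of the value of 1 read in its library, in 100% of the values of 9 libraries, and the size factors used here were recovered from these steps. Of the table's columns 2 were empty and left out, and 0 others were unassigned. The value of 3 reads, used as the floor for a group at 0, was 3.95, 3.40 and 3.77 in ASCs and 2.85 and 2.82 in FAPs, and it covers counting error only.

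Genes with a mean of at least 10 over the 5 ASC and FAP libraries were fitted with limma 3.58.1 (empirical Bayes with a trend) in R 4.3.3 on log2(value + 1), with group means for ASCs, FAPs and injured FAPs, and p was adjusted by Benjamini-Hochberg over 13598 genes. Pseudocount, filter, scaling, replicate block, leaving out libraries, edgeR 4.0.16 and DESeq2 1.42.0 were tried as alternatives, and scaling to total reads was added after seeing the data. Genes were named by rank among called genes, as markers, as the most abundant or most changed members of a list, or as edges of the filter, and others were chosen after their values were seen. The 36 lists and their members were chosen with earlier results of these data known. Gene positions are from GENCODE vM21 on GRCm38, and promoters were searched with Python 3.11.15. The listed zeros of the table were kept. Some genes that were tested and counted in the lists are not reported here by name.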

Additional observations from a re-analysis of the deposited data

How the results depend on the processing

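Of 419 named genes that were tested, 316 were called and 103 were not. In the 19 planned settings 272 of the called genes kept their call in every setting that tested them and 44 lost it in at least 1. The limit of a mean of at least 50 covered 358 of the 419 genes, and the other settings covered all. In 7 named genes the sign changed in a planned setting and the gene was called as deposited, in that setting or in both. By another count, with total reads included, 64 of the 103 genes changed sign in a setting that did not call them either. Quantile normalization of the log2 values gave -0.068 for Atp5b, -0.0651 for Cd34 and -0.12 for Col1a2, all called higher as deposited. It also gave -0.63 for Col6a2, -0.63 for Gdf10 and -0.63 for Ntn1, which were not called as deposited. The log2 fold change of Pecam1 ran from -1.59 without FAP replicate 2 to 6.02 without FAP replicate 1.

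Scaling to total reads, chosen after seeing the data, gave 1584 genes higher and 6364 lower in ASCs, against 3185 and 3267 as deposited. A common 75th percentile gave 2448 and 4183. With only the 5 ASC and FAP libraries in the fit, so without the closer injured FAP libraries, 3069 genes were higher and 3003 lower. Without a filter 18529 genes were tested, with 3497 higher and 3737 lower, and a mean of at least 50 left 11556 genes with 2861 and 2513. Leaving out a library gave 3012 to 3330 higher and 2670 to 3375 lower genes, and a group left with 1 FAP library was assumed to vary like the others. The cause of these differences was not tested.

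With the replicate number as a replicate block in the fit the counts were 3153 higher and 3174 lower. After group means were removed, libraries with the same number correlated across genes at -0.0707 to 0.0385, and libraries with different numbers at -0.133 to 0.133. Deviations of the 2 FAP libraries mirror each other, so each correlation with them occurs with both signs and cannot show pairs. Between ASCs and injured FAPs the correlations were 0.00199 to 0.0385 for the same number and -0.0341 to 0.0243 for different numbers. All were near 0, so the numbers mark no visible pairs there.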
